A study of Mus musculus with 17 samples.

Results

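The syndecans, the glypicans and perlecan are the proteins that carry heparan sulfate on the cell surface and in the matrix around cells. The 10 genes described here were listed by name, with no threshold on their values but with earlier results of these data known. They are the syndecans *Sdc1* to *Sdc4*, the glypicans *Gpc1*, *Gpc2*, *Gpc3*, *Gpc4* and *Gpc6*, and the perlecan gene *Hspg2*. All 10 were present among the 55450 genes of the bulk table and in the 3 single-cell matrices. In bulk, 9 of the 10 passed the filter of at least 1 TPM (a relative transcript level corrected for transcript length) in at least 2 libraries, which 15348 genes passed, and *Gpc3* did not. *Gpc2* passed that filter only through the group in which it was highest.

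The cells were cultured lines from tumor-bearing organs of 10 female FVB/NJ mice, 10 to 12 weeks old, that carried the MMTV-PyMT transgene, in which the mammary tumor virus promoter drives the polyoma middle T oncogene mainly in mammary epithelium. Bulk RNA-seq covered 14 libraries, 2 in each of 7 groups, namely primary tumor lines of the mammary fat pad (MFP) and lines from lung, lymph node (LN) and bone marrow (BM), each sorted as CD44low or CD44high. Within a group, both libraries are separate clonal isolates taken from different mice, so each library stood for 1 clone that had been enriched in culture. Single-cell RNA-seq added 1 library each of lung CD44high (lungH), lung CD44low (lungL) and LN CD44high cells (lymphH). All sorted cells were gated as EpCAMhigh, all groups including MFP carried the oncogene, and MFP has no CD44 status in the records.

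A syndecan spans the membrane, binds PDZ proteins through its short cytoplasmic tail, and can be cut off the surface by metalloproteases. A glypican is held in the outer leaflet by a lipid anchor that the hydrolase Notum can cleave, and perlecan is secreted into basement membranes. Their heparan sulfate chains bind fibroblast growth factors, Wnt proteins and other ligands, and syndecan-1 is known as the main syndecan of simple epithelia.

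The check of the labelled cell type failed in the lung lines, which bears on every lung value below. *Epcam*, the surface protein used for the sort, was listed at 0 in both lung CD44low libraries and at 0.23 and 0.86 TPM in lung CD44high, against 315 to 941 TPM in the other 10 libraries. The summed level of 8 epithelial genes was 1.74 to 2.36 TPM in lung CD44low, with *Epcam*, *Cdh1*, *Krt8*, *Krt19* and *Esrp1* at 0, and 15.7 to 87.5 TPM in lung CD44high, while it was 2090.0 to 7135 TPM in the other groups. The 8 fibroblast genes showed the opposite order: all 8 reached 1 TPM in lung CD44low (summed 4685 to 5089 TPM), 4 of 8 did in lung CD44high (86.8 to 196 TPM), and their sum was at most 11.6 TPM elsewhere. The 6 myoepithelial or basal genes summed to 659 to 713 TPM in lung CD44low and 594 to 656 TPM in MFP, but to 3.23 to 5.97 TPM in lung CD44high and 13.2 to 62.7 TPM in the LN and BM groups. Only 2 of the 6 reached 1 TPM in lung CD44low (*Krt14* at 0) and 1 in MFP (*Trp63* at 0). Similar sums thus rest on few genes and need not come from the same ones. The 5 cycling genes summed to 3.26 to 46.3 TPM in the lung libraries and 129 to 847 TPM in the others. The 5 endothelial genes summed to at most 0.18 TPM in every group, and the 5 macrophage genes to at most 39.2 TPM. *Cd44* transcript did not follow the sort: it was 12.2 and 21.6 TPM in lung CD44low against 21.95 and 12.1 TPM in lung CD44high, and 147 and 82.7 TPM in LN CD44low against 49.0 and 52.3 TPM in LN CD44high. The part of these marker differences in the results was not tested, and in bulk RNA fewer cells of a type and less RNA per cell cannot be told apart.

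The start regions of 7 of the 10 genes were found in the RefSeq promoter table (build GRCm38.p6). Of these, 4 are shown because the results turn on them: *Sdc1*, *Sdc4*, *Sdc3* and *Hspg2*. The *Sdc1* share of the syndecan pool was lowest, and the *Sdc4* share highest, in the lung CD44high bulk lines. *Sdc3* and *Hspg2* were both lowest in those lines. The stretches are Sdc1 at chr12:8771146-8771322 (plus strand), Sdc3 at chr4:130792287-130792536 (plus), Sdc4 at chr2:164443189-164443438 (minus) and Hspg2 at chr4:137468553-137468768 (plus). Each is the part of the 250 bases before the RefSeq start that lies outside the annotated exons, written 5′ to 3′. The *Sdc4* stretch lies inside the annotated gene body between exons, and the other 3 end just before the first exon base. Capitals mark the GC box GGGCGG, the CCAAT box CCAAT and their complements CCGCCC and ATTGG.
Sdc1: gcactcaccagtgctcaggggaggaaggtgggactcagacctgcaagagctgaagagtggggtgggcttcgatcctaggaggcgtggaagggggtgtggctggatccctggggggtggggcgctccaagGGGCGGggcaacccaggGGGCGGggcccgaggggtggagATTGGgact
Sdc3: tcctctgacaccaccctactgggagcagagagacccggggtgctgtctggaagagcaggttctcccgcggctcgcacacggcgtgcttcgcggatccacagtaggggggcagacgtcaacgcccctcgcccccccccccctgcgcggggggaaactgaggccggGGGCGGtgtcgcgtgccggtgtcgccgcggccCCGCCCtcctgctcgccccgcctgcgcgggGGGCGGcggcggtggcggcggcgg
Sdc4: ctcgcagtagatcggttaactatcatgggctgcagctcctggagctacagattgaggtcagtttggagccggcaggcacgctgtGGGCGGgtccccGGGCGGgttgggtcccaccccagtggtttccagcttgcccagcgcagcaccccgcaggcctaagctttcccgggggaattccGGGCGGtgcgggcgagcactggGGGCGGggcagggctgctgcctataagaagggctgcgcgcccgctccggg
Hspg2: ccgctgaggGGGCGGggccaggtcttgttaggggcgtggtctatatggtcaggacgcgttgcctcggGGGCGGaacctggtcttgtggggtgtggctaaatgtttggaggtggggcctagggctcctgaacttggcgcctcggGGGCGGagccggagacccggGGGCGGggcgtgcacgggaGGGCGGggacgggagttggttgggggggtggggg
Every one of the 7 windows of 250 bases held at least 1 GC box, with 3 in *Sdc1*, *Sdc3*, *Gpc2* and *Gpc3*, 4 in *Sdc4*, 1 in *Gpc4* and 5 in *Hspg2*, against 32.7% of 32851 promoters with any. In *Sdc1*, 1 of the 3 lies in the exon part that is not printed. The E-box CAGGTG, the AP-1 element TGANTCA and the letters TATAAA, read on both strands, were in none of the 7 and in 17.2%, 6.75% and 12.4% of all promoters. The letters GGAATG, bound by TEAD factors, were found only in *Gpc4* and in 12.6% of all promoters. The whole *Gpc4* window lies inside the annotated gene, so its matches are downstream of the annotated start. *Sdc3* held 32 CG pairs in its window, more than 95.4% of promoters, and *Sdc1* held 10, more than 62.2%.

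Relative to MFP, *Sdc1* was lower in all 6 metastasis-derived groups, and *Gpc4* was lower in the 4 LN and BM groups but higher in both lung groups. A gene was called when its log2 fold change, on the log2(TPM + 1) scale, was over 2 in size and its Benjamini-Hochberg adjusted p from limma, over all 15348 genes, was under 0.05. In LN CD44low, 2 of the 9 tested members were called, against 4.79% of all genes (2.72% lower), and in LN CD44high again 2 of 9, against 6.12% (3.68% lower). In BM CD44low and BM CD44high it was 2 of 9 each, against 7.16% of all genes (3.17% lower) and 7.67% (4.03% lower). These calls were *Sdc1* and *Gpc4*, both lower, in all 4 groups. In lung CD44low, 4 of 9 were called, against 18.8% of all genes: *Sdc2*, *Gpc4* and *Hspg2* were higher and *Sdc1* was lower. In lung CD44high, 5 of 9 were called, against 13.5%: *Sdc2* and *Gpc4* were higher and *Sdc1*, *Sdc3* and *Gpc1* were lower. Over the 8 tested members other than *Gpc2*, which was at 0 in most groups, the median change was 1.54 in lung CD44low, where the median of all genes was 0.00, -0.28 in lung CD44high (all genes -0.04), and between -0.93 and 0.06 in the LN and BM groups (all genes between -0.34 and -0.04). The members' share was above that of all genes in each of the 6 comparisons, which was not tested, and all 6 share the same 2 MFP libraries. The members were also chosen with earlier results of these data known, so no conclusion about the family is drawn from these shares.

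**Figure D1:**
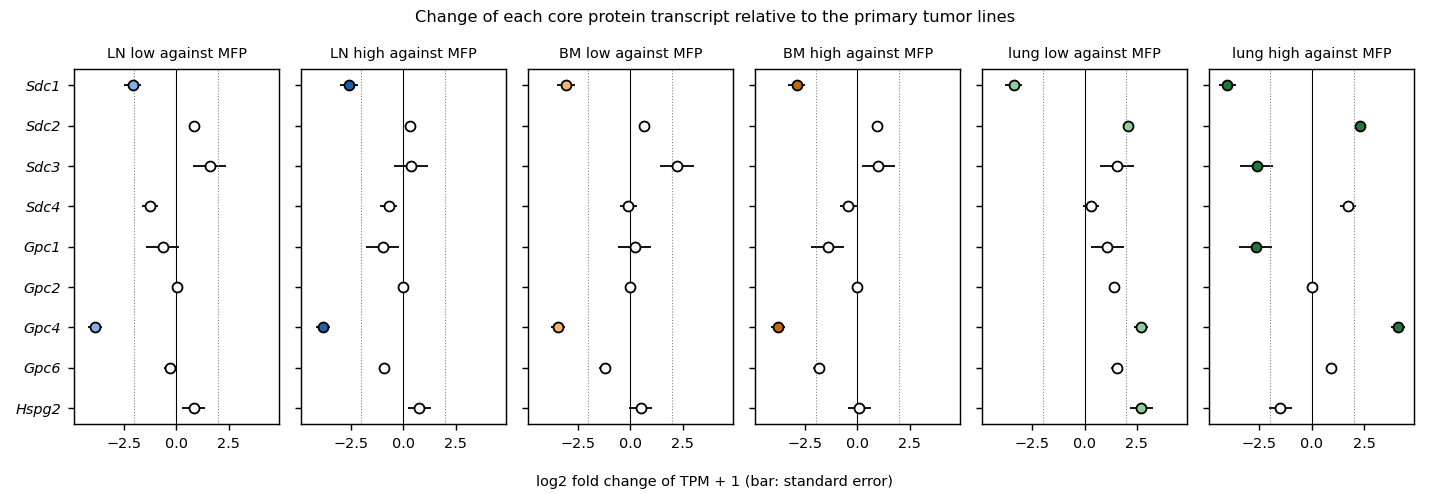
Log2 fold change of TPM + 1 against the primary tumor lines for the 9 members tested, 1 panel for each of the 6 metastasis-derived groups. Points are limma estimates, bars are 1 standard error, filled points were called, and dotted lines mark a log2 fold change of 2 in either direction. *Sdc1* lies below -2 in all 6 panels, and *Gpc4* lies below -3 in the LN and BM panels and above 2 in both lung panels.

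*Sdc1* (chr12:8771323-8793715, mm10, plus strand) encodes syndecan-1. Its level was 407 and 198 TPM in the 2 MFP libraries, 89.6 and 48.8 in LN CD44low, 46.5 and 45.6 in LN CD44high, 47.9 and 22.8 in BM CD44low, 36.5 and 37.9 in BM CD44high, 27.9 and 24.8 in lung CD44low, and 16.7 and 16.5 in lung CD44high. Both MFP libraries were above all 12 others, and both lung CD44high libraries were below all 12 others. The log2 fold change against MFP was -2.08 ± 0.41 (SE) in LN CD44low (adjusted p = 0.00803), -2.60 in LN CD44high, -3.06 in BM CD44low, -2.90 in BM CD44high, -3.38 in lung CD44low and -4.02 ± 0.41 in lung CD44high (adjusted p = 5.93e-05). In the order of group means, the ranges of BM CD44high, BM CD44low and lung CD44low overlapped, while the other neighbours did not. BM CD44low (47.9 and 22.8 TPM) also spanned LN CD44high (46.5 and 45.6 TPM), which is not its neighbour in that order. The LN CD44low call was lost in 4 of the alternatives: with only the groups compared in the fit (adjusted p = 0.168), under median-ratio scaling (-1.77), and without either of 2 libraries. Without MFP replicate 1 the change was -1.57 with an adjusted p of 0.0723, and without LN CD44low replicate 2 it was -1.65 with an adjusted p of 0.0593. The BM CD44low call was lost with only the groups compared (adjusted p = 0.0777).

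*Sdc4* (chr2:164424247-164443887, minus strand) encodes syndecan-4, a component of focal adhesions. It was the most abundant syndecan per transcript length in 13 of the 14 libraries, the exception being MFP replicate 1. Its level was 332 and 264 TPM in MFP, 119 and 126 in LN CD44low, 199 and 164 in LN CD44high, 164 and 469 in BM CD44low, 241 and 199 in BM CD44high, 362 and 379.9 in lung CD44low, and 1029 and 949 in lung CD44high. Lung CD44high thus stood above every other library. Against MFP the log2 fold change there was 1.74 ± 0.39 (SE, adjusted p = 0.00611), under the fold limit, and the changes in the other 5 groups lay between -1.27 and 0.32.

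*Sdc2* (chr15:32920723-33034935, plus strand) encodes syndecan-2, known for its expression in mesenchymal cells. It was 35.6 and 29.2 TPM in MFP, 53.3 and 66.0 in LN CD44low, 41.8 and 40.1 in LN CD44high, 58.7 and 44.4 in BM CD44low, 62.9 and 62.0 in BM CD44high, 127 and 152 in lung CD44low, and 139.5 and 196 in lung CD44high. All 4 lung libraries were above the other 10, and both MFP libraries were below all others. The rise over MFP was 2.07 ± 0.23 in lung CD44low (adjusted p = 5.74e-05) and 2.32 ± 0.23 in lung CD44high (adjusted p = 4.29e-05). The first sat just past the fold limit, since it was 1.95 without lung CD44low replicate 2 and 1.94 without MFP replicate 2. The 2 lung groups overlapped each other.

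*Sdc3* (chr4:130792537-130826319, plus strand) encodes syndecan-3, best known from neural tissue. It was 13.1 and 6.11 TPM in MFP, 29.8 and 28.5 in LN CD44low, 12.9 and 10.9 in LN CD44high, 14.6 and 139 in BM CD44low, 19.4 and 18.3 in BM CD44high, 23.1 and 34.5 in lung CD44low, and 0.94 and 0.39 in lung CD44high. Only the lung CD44high libraries were under 1 TPM. The call against MFP, -2.61 ± 0.79 with an adjusted p of 0.0271, was lost without lung CD44high replicate 1 or 2 or MFP replicate 1 (adjusted p from 0.0779 to 0.165), and with no filter on low values (adjusted p = 0.0607). BM CD44low replicate 2 stood apart from its partner for *Sdc3* and also for *Gpc1* and *Sdc4*. Its *Sdc3* level was the highest of all 14 libraries.

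**Figure D2:**
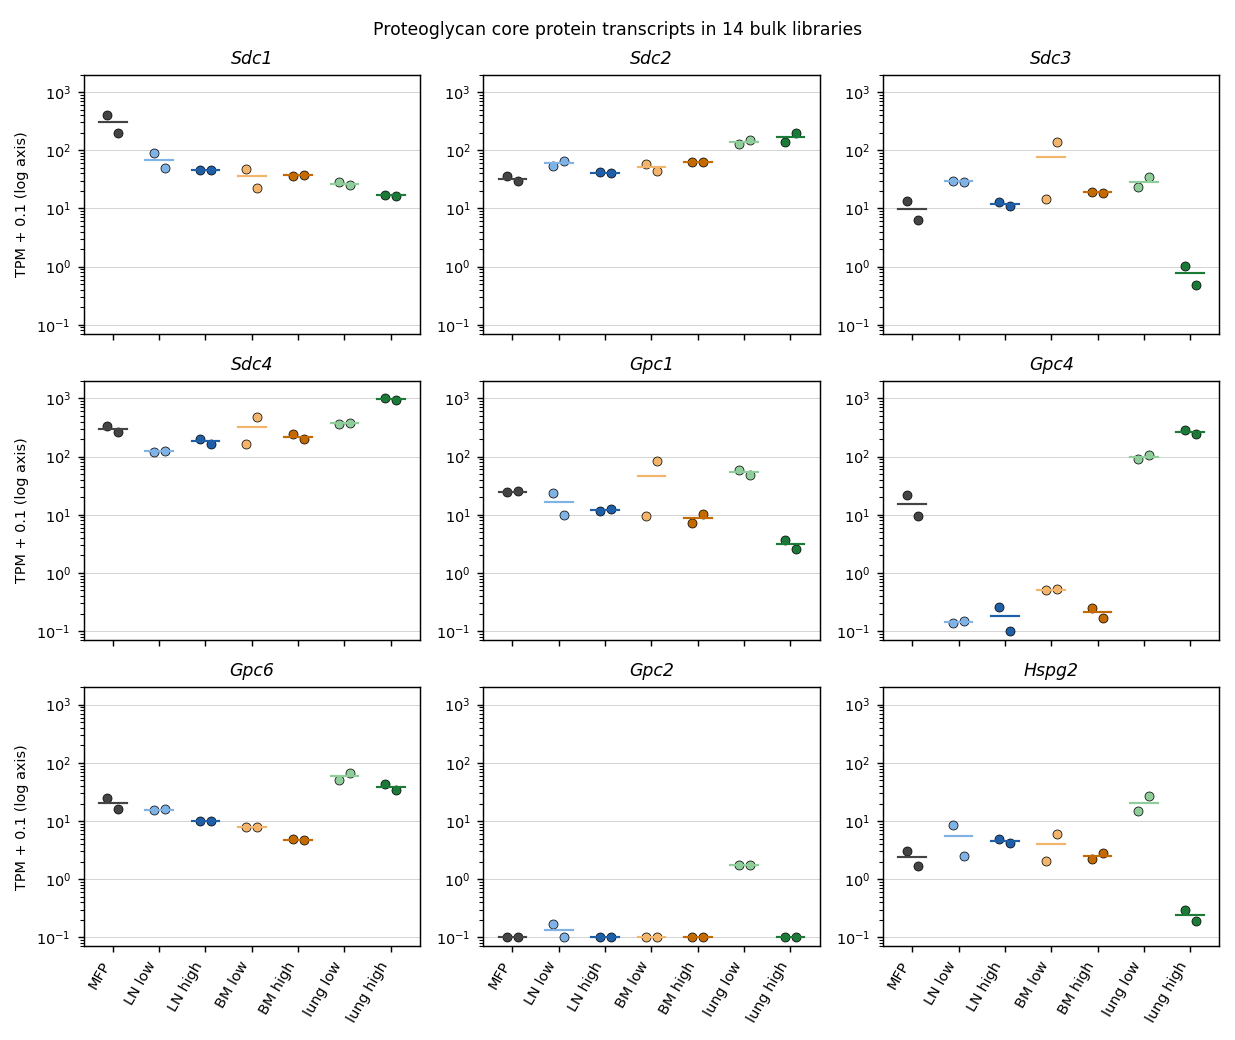
Level of 9 members in the 14 bulk libraries, as TPM + 0.1 on a log axis; each point is 1 library and each line the mean of the 2 libraries of a group. *Gpc4* is under 0.5 TPM in the LN and BM lines and 89.96 to 287 TPM in the lung lines, and *Sdc3*, *Gpc1* and *Hspg2* are lowest in lung CD44high.

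Both the size and the make-up of the syndecan pool differed between lines. Summed over *Sdc1* to *Sdc4*, the level was 788 and 497 TPM in MFP, 261 to 675 TPM across the 8 LN and BM libraries, 540.3 and 591 TPM in lung CD44low and 1186 and 1162 TPM in lung CD44high. *Sdc1* made up 51.7% and 39.8% of that sum in MFP, 30.7% and 18.2% in LN CD44low, 15.5% and 17.5% in LN CD44high, 16.8% and 3.37% in BM CD44low, 10.2% and 11.9% in BM CD44high, 5.17% and 4.19% in lung CD44low, and 1.41% and 1.42% in lung CD44high. The *Sdc4* share was 42.1% and 53.1% in MFP, 40.9% and 46.7% in LN CD44low, 66.3% and 62.9% in LN CD44high, 57.5% and 69.5% in BM CD44low, 67.0% and 62.7% in BM CD44high, 67.0% and 64.2% in lung CD44low, and 86.8% and 81.7% in lung CD44high. It was thus highest where the *Sdc1* share was lowest, but overlapped MFP in LN CD44low. Put as a ratio within a library, *Sdc4* was 0.815 and 1.33 times *Sdc1* in MFP and 61.5 and 57.5 times *Sdc1* in lung CD44high. In LN CD44low the ratio was 1.33 and 2.57, and in lung CD44low 13.0 and 15.3. *Sdc2* took 4.52% and 5.88% of the MFP pool and 23.5% and 25.7% of the lung CD44low pool. *Sdc3* took 20.6% in BM CD44low replicate 2 and at most 10.6% in every other library.

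*Gpc4* (chrX:52053021-52165252, minus strand) encodes glypican-4, a surface glypican known to bind Wnt and fibroblast growth factor ligands. It was 21.4 and 9.46 TPM in MFP, 0.04 and 0.05 in LN CD44low, 0.16 and 0.00 in LN CD44high, 0.40 and 0.43 in BM CD44low, 0.15 and 0.07 in BM CD44high, 89.96 and 105 in lung CD44low, and 287 and 244 in lung CD44high. MFP, lung CD44low and lung CD44high did not overlap one another, and all 8 LN and BM libraries lay under 0.5 TPM. Against MFP the change was -3.87 in LN CD44low, -3.83 in LN CD44high, -3.44 in BM CD44low and -3.79 in BM CD44high (SE 0.34, adjusted p from 4.21e-05 to 8.77e-05). Against the same MFP libraries it was 2.68 in lung CD44low (adjusted p = 0.000151) and 4.12 in lung CD44high (adjusted p = 1.31e-05). With only the groups compared in the fit, the LN CD44low and BM CD44low calls were lost (adjusted p = 0.0631 and 0.0545). Since the LN and BM levels are near 0, the log2(TPM + 1) scale understates those falls.

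Set directly against the 8 LN and BM libraries, the 4 lung libraries had 2 of 9 members called, both higher, against 12.7% of all genes (7.13% higher). These were *Gpc4*, with a difference of 7.13 ± 0.21 (SE, adjusted p = 5.88e-09), and *Gpc6*, with 2.31 ± 0.15 (adjusted p = 1.17e-06). Leaving aside *Gpc2*, whose place in the test was set by lung CD44low alone, 4 more members had an adjusted p under 0.05 but a smaller difference: 1.51 for *Sdc2*, 1.66 for *Sdc4*, -1.04 for *Sdc1* and -1.82 for *Sdc3*. The *Sdc3* difference passed the fold limit with a pseudocount of 0.1 (-2.38), under median-ratio scaling (-2.06) and without BM CD44low replicate 1 (-2.22). It came from lung CD44high (0.94 and 0.39 TPM), since lung CD44low (23.1 and 34.5 TPM) lay within the range of the LN and BM libraries. *Gpc1* and *Hspg2* did not pass, with -0.07 and 0.07. By group mean both were highest in lung CD44low and lowest in lung CD44high, so the average of the 2 lung groups describes neither.

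*Gpc6* (chr14:116925315-117976544, plus strand) encodes glypican-6, the closest relative of glypican-4. It was 24.5 and 15.8 TPM in MFP, 15.4 and 15.9 in LN CD44low, 10.1 and 9.85 in LN CD44high, 7.89 and 7.75 in BM CD44low, 4.78 and 4.65 in BM CD44high, 50.5 and 68.1 in lung CD44low, and 43.2 and 34.1 in lung CD44high. The 4 lung libraries were above the other 10, and only MFP and LN CD44low overlapped among neighbouring groups. No group passed the fold limit against MFP; the changes with an adjusted p under 0.05 were -0.92 in LN CD44high, -1.23 in BM CD44low, -1.86 in BM CD44high, 1.53 in lung CD44low and 0.93 in lung CD44high. The BM CD44high change passed the limit with a pseudocount of 0.1 (-2.04) and without MFP replicate 2 (-2.16).

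*Gpc1* (chr1:92831645-92860779, plus strand) encodes glypican-1. It was 24.1 and 25.0 TPM in MFP, 23.8 and 9.63 in LN CD44low, 11.4 and 12.5 in LN CD44high, 9.28 and 84.0 in BM CD44low, 7.03 and 10.2 in BM CD44high, 59.0 and 48.4 in lung CD44low, and 3.62 and 2.52 in lung CD44high. Lung CD44high was again below every other library. The fall against MFP, -2.66 ± 0.78 with an adjusted p of 0.0232, was not called after any 1 of the 4 libraries compared was left out (adjusted p from 0.0747 to 0.105), nor with no filter on low values (adjusted p = 0.0531).

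The other 2 glypicans were at or near the limit of these data. *Gpc2* (chr5:138273655-138280005, minus strand), whose protein is known from developing neurons, was 1.65 and 1.63 TPM in lung CD44low, 0.07 in 1 LN CD44low library and listed at 0 in the other 11. *Gpc3* (chrX:52272426-52613950, minus strand), an oncofetal glypican, was 0.10 TPM in lung CD44high replicate 2 and listed at 0 in 13 libraries. The 2 neighbouring glypican pairs did not share levels: *Gpc3* lies 107173 bases from *Gpc4*, and *Gpc5*, at most 0.05 TPM in any library, lies 400135 bases from *Gpc6*.

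The glypican pool was made up of different genes in different groups. *Gpc4* was 30.6% and 18.8% of the summed glypican TPM in MFP, at most 2.28% in any LN or BM library, 44.7% and 47.1% in lung CD44low and 86.0% and 86.9% in lung CD44high. *Gpc1* went from 34.4% and 49.8% in MFP to 91.1% in BM CD44low replicate 2 and to 1.08% and 0.90% in lung CD44high. The sum itself was 70.1 and 50.3 TPM in MFP and 201 to 334 TPM in lung, while LN and BM libraries had 11.96 to 39.3 TPM except BM CD44low replicate 2 with 92.1 TPM.

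**Figure D3:**
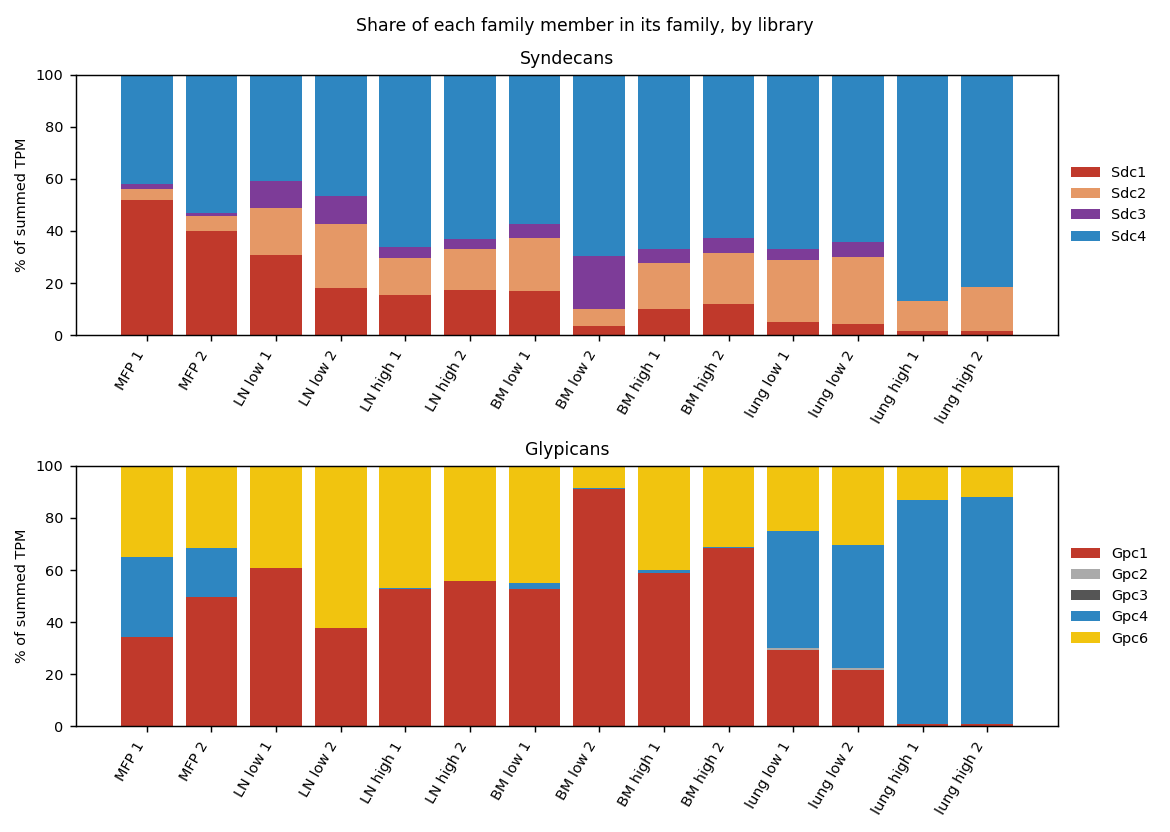
Share of each gene in the summed TPM of its family, in percent, for the 14 bulk libraries; the upper bars are the 4 syndecans and the lower bars the 5 glypicans. The *Sdc1* part shrinks from 51.7% in MFP replicate 1 to 1.41% in lung CD44high replicate 1, and *Gpc4* takes 86.0% and 86.9% of the glypicans in lung CD44high.

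*Hspg2* (chr4:137468769-137570630, plus strand) encodes perlecan, a large secreted proteoglycan of basement membranes. It was 2.95 and 1.60 TPM in MFP, 8.53 and 2.41 in LN CD44low, 4.74 and 4.13 in LN CD44high, 1.94 and 5.87 in BM CD44low, 2.13 and 2.72 in BM CD44high, 14.9 and 26.5 in lung CD44low, and 0.20 and 0.09 in lung CD44high. The highest and the lowest group were thus both lung lines, and the 5 groups between them overlapped from neighbour to neighbour. It rose over MFP in lung CD44low, by 2.71 ± 0.54 (adjusted p = 0.00266), and had a change of -1.49 ± 0.54 in lung CD44high (adjusted p = 0.0559).

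Between CD44high and CD44low lines, members were called in lung and none in LN or BM. In lung, 3 of 9 members were called, all lower in CD44high, against 11.3% of all genes (8.8% lower): *Hspg2* with -4.19 ± 0.54 (adjusted p = 0.000268), *Sdc3* with -4.16 ± 0.79 (adjusted p = 0.00319) and *Gpc1* with -3.76 ± 0.78 (adjusted p = 0.00526). *Gpc4* and *Sdc4* had changes of 1.44 and 1.41 with adjusted p of 0.0103 and 0.0208, under the fold limit. *Sdc1*, *Sdc2* and *Gpc6* lay between -0.63 and 0.25 with adjusted p from 0.103 to 0.466. Limma called 0 of 9 members in LN, against 0.208% of all genes, with 2 members (*Gpc6* and *Sdc2*) at an unadjusted p under 0.05. It called 0 of 9 in BM, against 0.104%, with 1 member (*Gpc6*) at an unadjusted p under 0.05. For *Gpc6* the change was -0.60 in LN, -0.63 in BM and -0.60 in lung, with no adjusted p under 0.05. The BM result depended on 1 library: without BM CD44low replicate 1, which left the divergent replicate 2 alone in its group, *Sdc3* and *Gpc1* were called.

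The difference between those differences was tested by an interaction contrast. *Hspg2* was the 1 of 9 members called in each case, with -4.12 ± 0.76 for lung against LN (adjusted p = 0.00429, against 10.4% of genes called and 7.0% called lower) and -3.80 ± 0.76 for lung against BM (adjusted p = 0.00738, against 8.66% and 5.89%). A count of 1 of 9 is thus near the background, and both contrasts share the lung libraries. *Sdc3* and *Gpc1* did not pass against LN (-2.93 and -3.43, adjusted p = 0.0982 and 0.0559) or BM (-2.92 and -2.12, adjusted p = 0.118 and 0.251), although both were called in both contrasts once BM CD44low replicate 2 was left out of the fit, and in the LN contrast also without BM CD44low replicate 1. *Gpc4* had 1.79 against BM (adjusted p = 0.0320), under the fold limit.

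The genes that build, edit and use heparan sulfate were read from 7 lists. A list gene that reached 1 TPM in 1 group alone entered the test only through that group, so *Papss2*, *Sulf1*, *Hs3st6*, *Notum*, *Sdcbp2*, *Fgf10*, *Fgf7* and *Hgf* are given by their levels and stay out of the counts and medians below. *Hs6st2* stays in them because 1 lung CD44high library also reached 1 TPM, although without lung CD44low it would not have been tested. The shares of all genes beside the counts still include such genes. Counts and shares are thus on unlike sets of genes, and no excess or match is read from them. Of the 11 other tested genes of chain synthesis, none was called against MFP in LN CD44low, LN CD44high, BM CD44low or BM CD44high, where 4.79%, 6.12%, 7.16% and 7.67% of all genes were. In lung CD44low 2 of the 11 rose, where 18.8% of all genes were called. *Fam20b*, the xylose kinase of the linkage region, was 10.7 and 10.8 TPM in MFP and 113 and 143 in lung CD44low (3.45, adjusted p = 0.00229). *Extl3*, which starts the chain, rose by 2.09. In lung CD44high none of the 11 was called against MFP (13.5% of all genes), and the medians of the list were 0.15 in lung CD44low and 0.09 in lung CD44high. *Papss2*, which makes the sulfate donor, was 3.34 and 5.32 TPM in lung CD44low and at most 0.18 TPM elsewhere.

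Of the 9 other tested editing enzymes, 2 were higher and 1 was lower in CD44high between the 2 lung groups, against 11.3% of all genes, with a list median of 0.82 where all genes had -0.01. The 1 called lower was *Hs6st2*, whose place in the test was set by lung CD44low. No result is read from that call, and the median includes it. *Sulf1*, an extracellular enzyme that removes 6-O-sulfate from finished chains, was 169 and 204 TPM in lung CD44low and at most 0.18 TPM in the other 12 libraries. *Hs6st2*, which adds 6-O-sulfate, was 8.49 and 11.8 TPM in lung CD44low against 1.51 and 0.68 in lung CD44high. *Hs3st1*, the sulfotransferase known for the antithrombin site, went the other way, with 0.29 and 0.57 TPM in lung CD44low and 283 and 112 in lung CD44high (6.98, adjusted p = 6.37e-07), and 16.9 and 12.9 in MFP. *Hs3st6* was 10.6 and 9.82 TPM in lung CD44high and at most 0.04 elsewhere. *Ndst1*, which starts sulfation of the chain, was 169 and 176 TPM in lung CD44high, 28.9 and 39.9 in lung CD44low and 7.94 to 36.6 in the other 10 libraries.

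Of the 7 other tested genes that act in shedding and release of the core proteins, 1 was called between the 2 lung groups, lower in CD44high. There 11.3% of all genes were called, and the list median was -0.03. *Mmp14*, a membrane metalloprotease known to cut syndecans, was 107 and 118 TPM in lung CD44low and listed at 0 in both lung CD44high libraries, against 10.8 and 9.04 in MFP. *Notum*, which releases glypicans, was 22.8 and 13.2 TPM in lung CD44high and at most 0.18 elsewhere. Of 7 tested genes of lysosomal breakdown, 1 rose in lung CD44low against MFP (18.8% of all genes called), and 1 rose and 1 fell in lung CD44high (13.5%). *Ids*, the iduronate sulfatase, was the gene that rose in both (4.45 and 2.27), and *Gusb*, a glucuronidase, fell in lung CD44high (-3.45).

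Of the 8 other tested cytoplasmic partners of syndecans, 1 fell in lung CD44low against MFP (18.8% of all genes called) and 0 were called in lung CD44high (13.5%). *Sdcbp2*, the paralog of syntenin, had 11.5 and 10.3 TPM in MFP and at most 0.73 TPM in any other library. *Ezr*, which links membrane proteins to actin, was 1.40 and 2.49 TPM in lung CD44low, 62.7 and 47.9 in lung CD44high, and 86.6 to 167 in the other 10 libraries. *Synj2bp* fell in LN CD44high, BM CD44low and BM CD44high, with changes of -2.11, -2.05 and -2.52.

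Of 9 other carriers of heparan sulfate, 5 were tested: *Tgfbr3*, *Agrn*, *Col18a1*, *Nrp1* and *Cd44*, the last being the marker used for the sort. Against MFP, 1 rose and 2 fell in lung CD44low (18.8% of all genes called), 1 rose and 3 fell in lung CD44high (13.5%), and 1 rose and 0 fell in LN CD44low (4.79%). In LN CD44high 1 rose and 2 fell (6.12%), and 2 rose and 2 fell in BM CD44low (7.16%) and in BM CD44high (7.67%). The 2 that fell in LN CD44high and both BM groups were *Nrp1* and *Cd44*. *Cd44* was also among the genes that fell in both lung groups. *Tgfbr3* (betaglycan) was 0.29 and 0.14 TPM in MFP, 53.7 and 53.3 in lung CD44low and 182 and 80.2 in lung CD44high (5.49 and 6.65, adjusted p = 4.90e-05 and 2.23e-05). *Agrn* (agrin) fell in both lung groups, with 47.2 and 26.3 TPM in MFP and only 1.32 to 2.82 TPM in the lung libraries. *Col18a1*, like perlecan a basement membrane proteoglycan, rose in the 4 LN and BM groups (2.02 to 2.30) and was 0.02 and 0.00 TPM in lung CD44high. None of the 5 was called between the 2 lung groups, where 11.3% of all genes were.

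Among the 7 other tested growth factors that bind these chains, 2 rose and 2 fell in lung CD44low against MFP (18.8% of all genes called), with a list median of -0.46. In lung CD44high 0 rose and 1 fell (13.5% of all genes), with a median of -0.27, and between the 2 lung groups 0 were higher and 2 lower in CD44high (11.3% of all genes). *Fgf10* was 341 and 410 TPM in lung CD44low and at most 0.13 TPM in the other 12 libraries, and *Fgf7* was 210.0 and 198 TPM there and at most 0.39 elsewhere. *Hgf* was 11.1 and 16.9 TPM in lung CD44low and at most 0.12 elsewhere, and *Vegfa* was 30.8 and 42.6 TPM, with 16.4 TPM the highest value outside that group (BM CD44low replicate 2). *Areg*, a ligand of the EGF receptor, fell in both lung groups, with 297 and 127 TPM in MFP against at most 0.21 TPM in lung. It also fell in BM CD44high (-3.34). In LN CD44low and LN CD44high against MFP none of the 7 was called (4.79% and 6.12% of all genes), while 0 rose and 2 fell in BM CD44low (7.16% of all genes called) and 0 rose and 3 fell in BM CD44high (7.67%). The fibroblast markers given above were high in the same lung CD44low libraries.

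**Figure D4:**
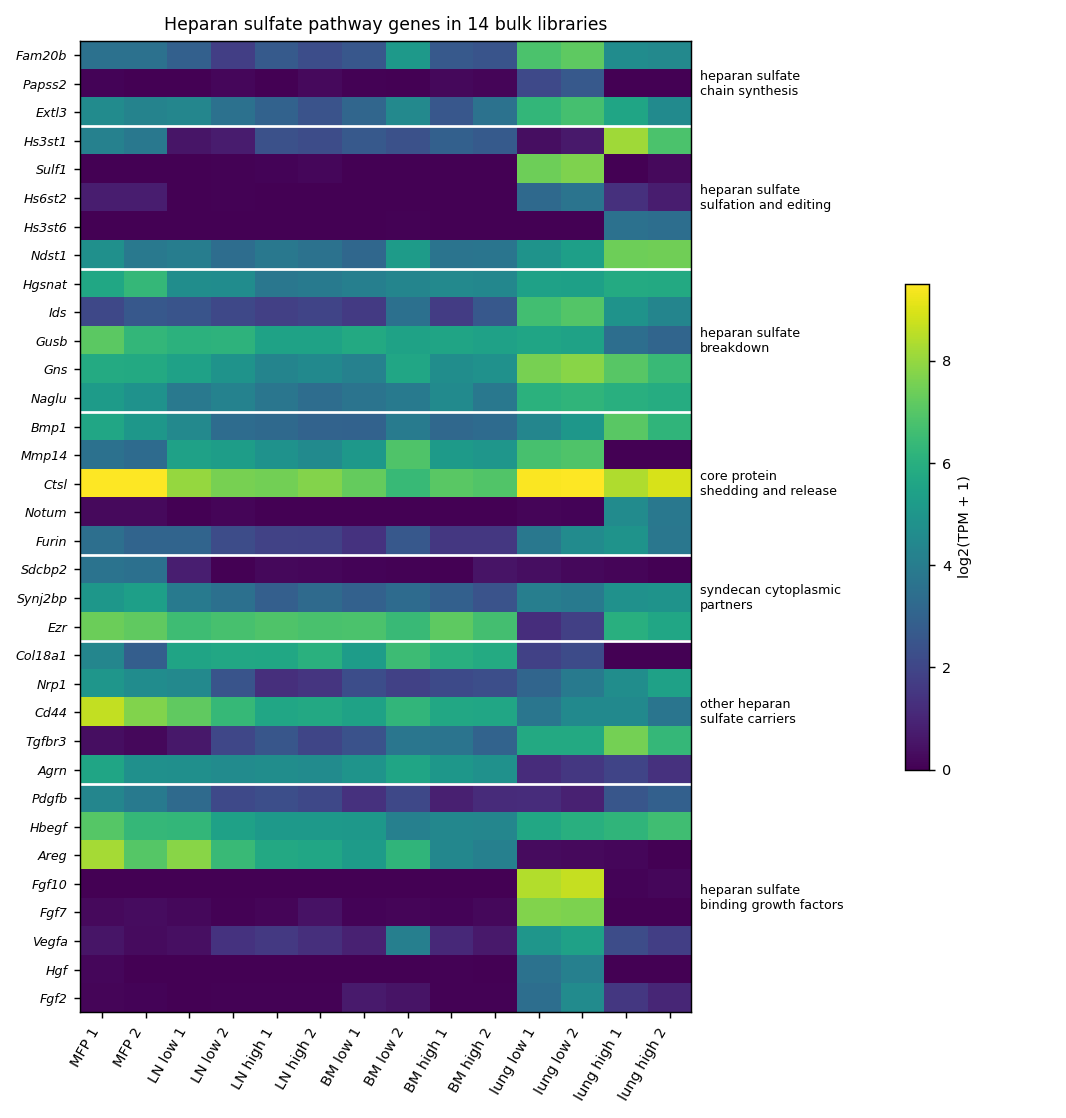
Level of the 34 named pathway genes as log2(TPM + 1), 1 row for each gene grouped by its list and 1 column for each of the 14 bulk libraries. *Sulf1*, *Fgf10* and *Fgf7* are bright only in the 2 lung CD44low columns, and *Hs3st1*, *Hs3st6* and *Notum* are brightest in the 2 lung CD44high columns.

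Across the 14 bulk libraries some members ran together, which is a description, since libraries of a group share their source. On the log2(TPM + 1) scale, Pearson's r was 0.88 for *Gpc4* with *Gpc6*, 0.83 for *Sdc4* with *Gpc4*, 0.81 for *Gpc1* with *Hspg2*, 0.77 for *Sdc3* with *Gpc1* and -0.73 for *Sdc1* with *Sdc2*. Among genes with a mean of at least 5 TPM, those with the pattern most like each member other than *Gpc2* and *Gpc3* were *Ddx10* for *Sdc1* (r = 0.98), *Pla2g15* for *Sdc2* (0.96), *Fam49b* for *Sdc3* (0.94), *Klf13* for *Sdc4* (0.95), *Ybx1* for *Gpc1* (0.97), *Msrb2* for *Gpc4* (0.996), *Tcaf1* for *Gpc6* (0.97) and *Snx10* for *Hspg2* (0.98). *Ndst1* was the second closest to *Sdc4* (0.94), and *Mmp14* was the third closest to *Sdc3* (0.935).

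In single cells, 1236 of 3623 barcodes in lungH, 348 of 2808 in lungL and 2562 of 3297 in lymphH passed the filter (over 250 genes detected, mitochondrial counts below 10%). They held 2210623, 2220759 and 5287425 counts, with medians of 557, 4011 and 585 counts per cell. With 1 library per group there is no replicate and no test, and the exact Poisson 95% intervals given here cover counting error only. The columns carry numbers instead of barcodes, so barcodes shared between libraries were not counted. *Epcam* had 0 counts in lungL, 3 in lungH and 936 in lymphH, and *Cd44* was 8.51 per 10000 in lungL, 4.99 in lungH and 4.49 in lymphH, against the order of the CD44 labels. Cells with at least 2000 counts were 194, 206 and 254 in lungH, lungL and lymphH and held 73.1%, 95% and 74.5% of the counts, so the sums rest mainly on these deep cells. The 8 epithelial genes summed to 0.878, 4.28 and 9.38 per 10000 and the 8 fibroblast genes to 20.6, 0.498 and 0.0870 per 10000 in lungL, lungH and lymphH. The 6 myoepithelial or basal genes, of which 3, 2 and 2 were detected, summed to 45.8, 0.0905 and 0.168 per 10000 in the same order. The 5 cycling genes summed to 3.08, 9.90 and 5.23. Over 13651 genes the summed counts ranked most like lung CD44low replicate 2 for lungL (Spearman's rho 0.756), lung CD44high replicate 2 for lungH (0.757) and LN CD44low replicate 1 for lymphH (0.828).

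Perlecan and glypican-4 transcripts were highest in lungL. *Hspg2* had 394 counts in lungL, or 1.77 per 10000 (1.60 to 1.96), 13 counts in lungH, or 0.0588 (0.0313 to 0.101), and 96 counts in lymphH, or 0.182 (0.147 to 0.222). The lungL level was 30.2 times that of lungH (17.4 to 57.2), the same direction as in bulk. *Gpc4* had 114 counts in lungL, 19 in lungH and 0 in lymphH, or 0.513 (0.423 to 0.617) and 0.0860 (0.0518 to 0.134) per 10000. Against a limit of 3 counts set in place of the 0 in lymphH, the point value was 90.5-fold higher in lungL and 15.1-fold higher in lungH. These folds carry no interval for the counting error of the lung counts. Within lung the *Gpc4* order was the reverse of the bulk order, with lungL 5.97 times lungH (3.65 to 10.3).

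The syndecans separated the libraries by less. *Sdc4* was 7.08 per 10000 in lungH (6.74 to 7.44), 4.64 in lungL (4.36 to 4.94) and 3.26 in lymphH (3.11 to 3.42), with lungH highest as in bulk. *Sdc1* was 2.19 in lungH, 1.36 in lungL and 0.524 in lymphH, so that lungH was 4.17 times lymphH (3.59 to 4.85), whereas in bulk lung CD44high was the lowest group. *Sdc3* was 1.35 in lungH and 1.13 in lungL, a ratio of lungL to lungH of 0.832 (0.701 to 0.988), against the large deficit of lung CD44high in bulk. *Sdc2* was 2.36 to 2.60 in the 3 libraries, and the interval of each ratio included 1.

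*Gpc1* was 3.05 per 10000 in lungH (2.83 to 3.29), 1.74 in lungL and 0.666 in lymphH, again opposite to the bulk order of the lung groups. *Gpc6* was low throughout, with 17 counts in lungH, 31 in lungL and 84 in lymphH, and a lungL to lymphH ratio of 0.879 (0.562 to 1.34). *Gpc2* had 4 counts, all in lungL, and *Gpc3* had 2, 2 and 5 counts in lungH, lungL and lymphH, at or near the limit of 3 counts. By point value alone 5 of the 10 members were highest in lungH, 3 in lungL and 2 in lymphH, but for *Sdc2*, *Gpc2*, *Gpc3* and *Gpc6* that place rests on a few counts or on a ratio whose interval includes 1. Single-cell libraries count 3′ ends and bulk TPM covers whole transcripts, and the clones in the single-cell libraries are not stated to be those of the bulk libraries; the part of either in these reversals was not tested.

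**Figure D5:**
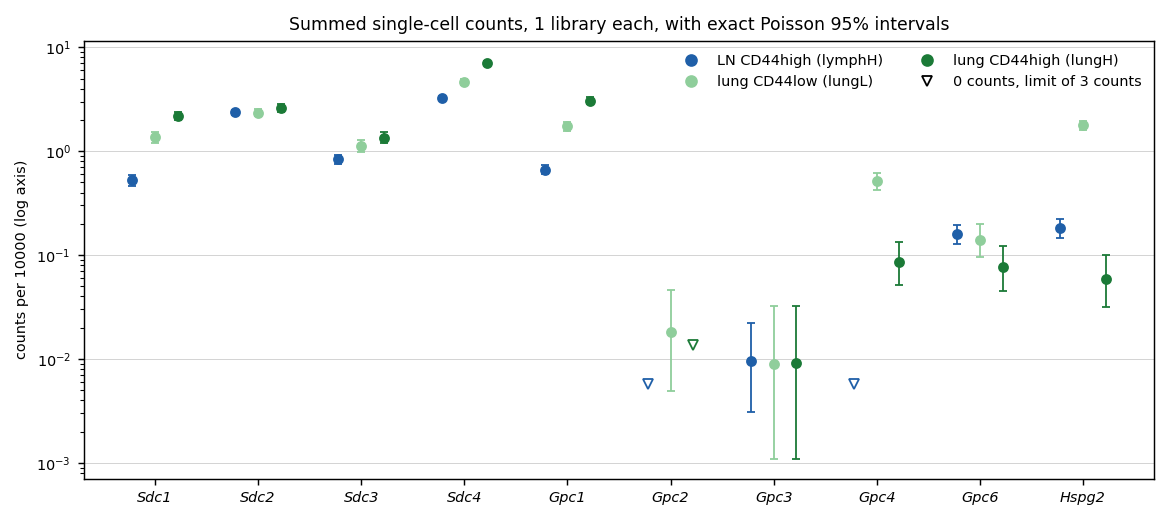
Counts per 10000 of the 10 members, summed over the cells of each single-cell library, on a log axis with exact Poisson 95% intervals; open triangles mark the limit of 3 counts where the count was 0. *Hspg2* and *Gpc4* are highest in lungL, and *Sdc1*, *Sdc4* and *Gpc1* are highest in lungH.

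Depth differed between cells, so shares of cells were compared after thinning each cell to 2000 counts, which kept 194 cells in lungH, 206 in lungL and 254 in lymphH. *Hspg2* was then found in 26.2% of lungL cells (exact binomial 95% interval 20.4 to 32.8), 1.03% of lungH (0.125 to 3.67) and 5.51% of lymphH (3.05 to 9.08), and without thinning in 60.2%, 4.64% and 25.2% of the same cells. *Sdc4* was in 57.7% of lungH, 49.5% of lungL and 38.6% of lymphH cells, and in 83.0%, 80.6% and 85.4% without thinning. *Gpc1* was in 41.2% of lungH cells (34.2 to 48.5), 21.8% of lungL and 13.8% of lymphH, and in 60.8%, 46.1% and 39.8% without thinning. *Sdc2* was found in more lymphH cells, 41.3% (35.2 to 47.7), than lungH cells, 28.4% (22.1 to 35.3), while the levels per 10000 were close, so no order is read from that share. *Gpc4* was in 14 of 206 thinned lungL cells, 3 of 194 in lungH and 0 of 254 in lymphH; in lungL thinning alone lowered the share with a count from 29.1% to 6.80%, so a count of 0 at this depth does not bound the share of cells that express it. No cell type was assigned, so no share in a cell type that lacks these genes can be given beside these values.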

How the data were processed

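Bulk cDNA was made by the authors with a SMART-seq2 type protocol, aligned with STAR to mm10, quantified with RSEM on a GENCODE annotation and deposited as TPM. TPM keeps no read depth, so counting error is unknown, and 11508 to 13052 genes per library reached 1 TPM. The 15348 of 55450 genes that reached 1 TPM in 2 or more libraries were fitted as log2(TPM + 1) with limma 3.58.1 in R 4.3.3 (7 group means, eBayes with a trend, 7 residual degrees of freedom). The study itself tested read counts with edgeR, which are not used here. The p-values measure the spread between clonal isolates. In each of 12 comparisons a call needed a log2 change beyond 2 in size together with p under 0.05 after Benjamini-Hochberg adjustment. The fit was tested on simulated data.

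Single-cell libraries (ddSeq, SureCell 3′) were quantified by the authors with kallisto and deposited as whole-number counts per gene and barcode. Counts of cells passing the filter were summed per library (Python 3.11.15 with scipy 1.17.1, pandas 2.3.3 and numpy 2.4.6). Cells were not clustered and doublets were not called. Gene positions came from the GENCODE mouse annotation of mm10, whose identifiers matched the table.

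Named genes were the 10 members; of each of the 7 lists the called genes with the largest change, at most 3 per direction and comparison; and the 3 genes most correlated with each member, of which mainly the first is printed, and none for *Gpc2*, whose pattern is set by 1 group. The members and lists were chosen with earlier results of these data known. Alternatives were a pseudocount of 0.1, no filter, a filter of 5 TPM, median-ratio scaling, a replicate block, only the groups compared, each library left out, and for cells more than 500 genes, no mitochondrial limit, all barcodes and the mean of per-cell values.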

Additional observations from a re-analysis of the deposited data

Results flagged for a closer look

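The CD44 difference of *Hspg2* was not the same in each organ. The interaction contrast of lung against LN gave -4.12 and that of lung against BM gave -3.80 on the log2 scale, and each passed the threshold in limma. In the lung lines CD44high cells had 0.20 and 0.09 TPM and CD44low cells 14.9 and 26.5 TPM, while the CD44high and CD44low ranges overlapped in LN and in BM. The epithelial markers differed between the 2 lung groups as well, as did the fibroblast markers, and their part was not tested.

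*Gpc4* and *Gpc6* differed between the lung lines and the LN and BM lines, by 7.13 and 2.31 on the log2 scale. All 4 lung libraries were above all 8 LN and BM libraries for both genes. *Epcam* was also at most 0.86 TPM in the lung libraries, and the part of that difference was not tested. In single cells *Gpc4* went the same way, with 114 and 19 counts in the lung libraries and 0 in lymphH, and *Gpc6* did not, with 0.140 and 0.0769 per 10000 in lungL and lungH and 0.159 in lymphH.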

How the results depend on the processing

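No change of direction was found among the 39 differences of members other than *Gpc2* with an adjusted p under 0.05, under any alternative run: 756 values kept their side of the threshold, 18 lost it and 6 gained it. Replicate numbers did not pair the libraries (r of deviations from -0.194 to 0.168 over 21 pairs of groups, 3 over 0.1), and with the replicate block the number of members called was unchanged in all 12 comparisons, for example 5 in lung CD44high against MFP and 4 in lung CD44low against MFP. Median-ratio scaling shifted the median of all genes by up to 0.38 (BM CD44high against MFP) and left 1 member called in LN CD44low against MFP and 2 in the CD44 difference of lung against LN. With only the groups compared, 0 were called in LN CD44low and BM CD44low against MFP and 3 in the CD44 difference of lung against LN. A pseudocount of 0.1 gave 4 for that difference and 3 for the CD44 difference of lung against BM. Both counts include *Gpc2*, whose place in the test was set by lung CD44low alone. With no filter, lung CD44high against MFP had 3. Leaving out single libraries, the counts ranged from 1 to 2 in LN CD44low against MFP, 3 to 5 in lung CD44high against MFP, 0 to 2 in BM CD44high against CD44low, and 1 to 3 in both CD44 differences. Of 30 single-cell levels, 17 moved beyond their counting interval with the mean of per-cell values, 9 with more than 500 genes per cell, 8 with all barcodes and 0 with no mitochondrial limit. The order of the 3 libraries was the same under all 4 alternatives for 8 of the 10 members, the exceptions being *Sdc2* and *Gpc3*, and 1 member, against 2, was highest in lymphH with all barcodes and with the mean of per-cell values. The causes of these changes were not tested. Depth is unknown in bulk, 2 libraries per group limit every p, and members near 0 counts (*Gpc2*, *Gpc3*) allow no comparison.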
